A study of Mus musculus with 6 samples.

Results

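The genes described here encode the subunits of the 5 complexes of the mitochondrial respiratory chain, together with the relatives that share their symbols. They were chosen by gene symbol, with earlier results of these data already known. The rule took every gene whose symbol starts with Nduf, Sdha to Sdhd, Uqcr or Atp5, and the Cox subunits from Cox4i to Cox8a. The array lists 85 such genes, and 79 of them were detected on at least 3 of the 6 arrays, out of 9782 genes detected in the same way. Of the 79 genes, 70 encode subunits, with 33 in complex I, 3 in complex II, 6 in complex III, 12 in complex IV and 16 in complex V. The other 9 are 7 assembly factors of complex I, the supercomplex factor Cox7a2l and the pseudogene Ndufs5-ps.

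Complexes I and II pass electrons from NADH and succinate to ubiquinone, complex III passes them on to cytochrome c, and complex IV hands them to oxygen. Complexes I, III and IV pump protons across the inner membrane, and complex V, the ATP synthase, uses the returning protons to make ATP. Most subunits are encoded in the nucleus and imported, while a few core subunits of complexes I, III, IV and V are encoded by the mitochondrial DNA. Thymocytes that divide rely on both glycolysis and respiration, and small resting thymocytes have little cytoplasm and few mitochondria.

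RNA of whole thymus was compared between 3 wild type C57BL/6 mice and 3 transgenic mice of the microRNA-181d Tg-38 line, with 1 array per mouse. No treatment is given for either group, and the mice of the study were 5 to 8 weeks old. Tg-38 is a single founder line that carries a fragment with the primary transcript of miR-181d in the VA-hCD2 cassette, which uses elements of the human CD2 gene and is active in thymocytes and peripheral T cells. The comparison asks how the RNA of the thymus differs when this microRNA is over-expressed. No probe is listed under miR-181d, and its own level is not part of these data. Its mature sequence is printed because it is the agent that separates the groups, with the seed (bases 2 to 8) in capitals. It is the RefSeq entry of the GRCm38.p6 build, at chr8:84178759-84178781 on the minus strand.
mmu-miR-181d-5p: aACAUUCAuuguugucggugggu

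Each level below is a log2 intensity of the brightest probe of a gene after background correction and quantile normalization between arrays, and each change is the log2 fold change of Tg-38 over wild type. Levels of different genes were not set against each other, because probes differ in brightness. Between 17674 and 18526 probes were detected per array. Over all 18352 probes kept, 202 passed an adjusted p of 0.05 in limma, which is 1.10% of them, and by the brightest probe of each gene 126 of 9782 genes passed (1.29%). Markers of double-positive thymocytes, the largest population of the organ, were detected for 9 of the 10 markers with a probe. Their summed intensity, like each sum below, counts every marker with a probe, detected or not. It ran from 47400 to 48500 in wild type and from 41800 to 44000 in Tg-38, and none of the 9 markers detected passed. Their changes ran from -0.46 (Cd4, adjusted p = 0.12 by limma) to 0.31 (Ptcra), with a median of -0.13. The summed intensity of macrophage and dendritic cell markers ran from 3800 to 4060 in wild type and from 4740 to 5900 in Tg-38. Of the 8 such markers detected, only Cd86, a costimulatory protein of such cells, passed the test. Of the single-positive T cell markers, which ran from 1650 to 2040 and from 2600 to 3340, Il7r passed. The 3 erythroid markers with a probe, of which Hba-a1 and Alas2 were detected, ran together from 11000 to 25600 in wild type and from 3870 to 9500 in Tg-38. Neither Hba-a1 (change -1.57, adjusted p = 0.088 by limma) nor Alas2 (-1.92, adjusted p = 0.1) passed. The 7 thymic epithelium markers with a probe, 4 of them detected, summed to between 1060 and 1280 in wild type and between 1300 and 1590 in Tg-38. None of the 4 passed (Cldn4 had a change of 0.44, adjusted p = 0.13 by limma). None of the 6 heart and skeletal muscle markers with a probe was detected. In such bulk samples fewer cells of a type and less RNA per cell cannot be told apart, and the part of these marker differences in the values below was not tested.

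None of the 79 genes passed the test, on the brightest probe or on any of their 112 probes, and the lowest adjusted p by limma was 0.08, for Cox7b. At an unadjusted p under 0.05, 3 of the 79 were higher in Tg-38 (Cox7b, Ndufaf4 and Ndufaf1) and 1 was lower (Ndufb11). Over all genes tested, 10.6% were higher and 6.94% lower at that level by limma. The methods' t-test gave 7 of the 79 higher and 2 lower at that level, and 0 after Benjamini-Hochberg adjustment. The share of all genes by that t-test was not worked out, so its counts have no background of the same test. The levels of the 3 Tg-38 arrays all lay above those of the 3 wild type arrays for 13 of the 79 genes and below them for 2. Among all genes the groups did not overlap in this way for 14.2% (higher) and 10.5% (lower). An exact permutation test of 3 arrays against 3 cannot give a two-sided p below 0.1, so it could not pass for any single gene.

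The changes were also small in size. The 95% interval of the change lay within 1.5-fold in both directions for 69 of the 79 genes, compared with 74.6% of all genes tested. Among the brightest 2446 genes tested it did so for 2239, and for 53 of the 55 respiratory chain genes among them. The part of probe brightness in this difference was not tested. Within 1.2-fold lay the intervals of 5 of the 79 genes and of 248 of all 9782. A change of 1.5-fold was therefore outside the interval for most of these genes, while a change of 1.2-fold could not be told from none for most. The median standard error of a single gene's change was 0.12 on the log2 scale.

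The signs of the small changes were uneven under the normalization used. Of the 70 subunits, 58 (82.9%) had a log2 fold change above 0, compared with 52.9% of all genes tested. With the arrays scaled to a common median over all 45281 probes, detected or not, only 12 of 70 lay above 0. Centred on the median of the 18352 probes kept, 51 of 70 lay above 0, with a median of 0.06. The scaling over all probes moved the median of all genes from 0.02 to -0.13 and the median of the subunits from 0.08 to -0.09. Relative to all genes, the medians of complexes I to V were 0.08, 0.00, 0.11, 0.06 and 0.04 under quantile normalization. They were 0.05, 0.00, 0.07, 0.03 and 0.04 under median scaling over all probes. The position of the subunits above the median gene was thus similar under quantile normalization and under scaling over all probes, while their direction against wild type was not. Subunits of a complex are not independent replicates, and these counts carry no test.

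**Figure D1:**
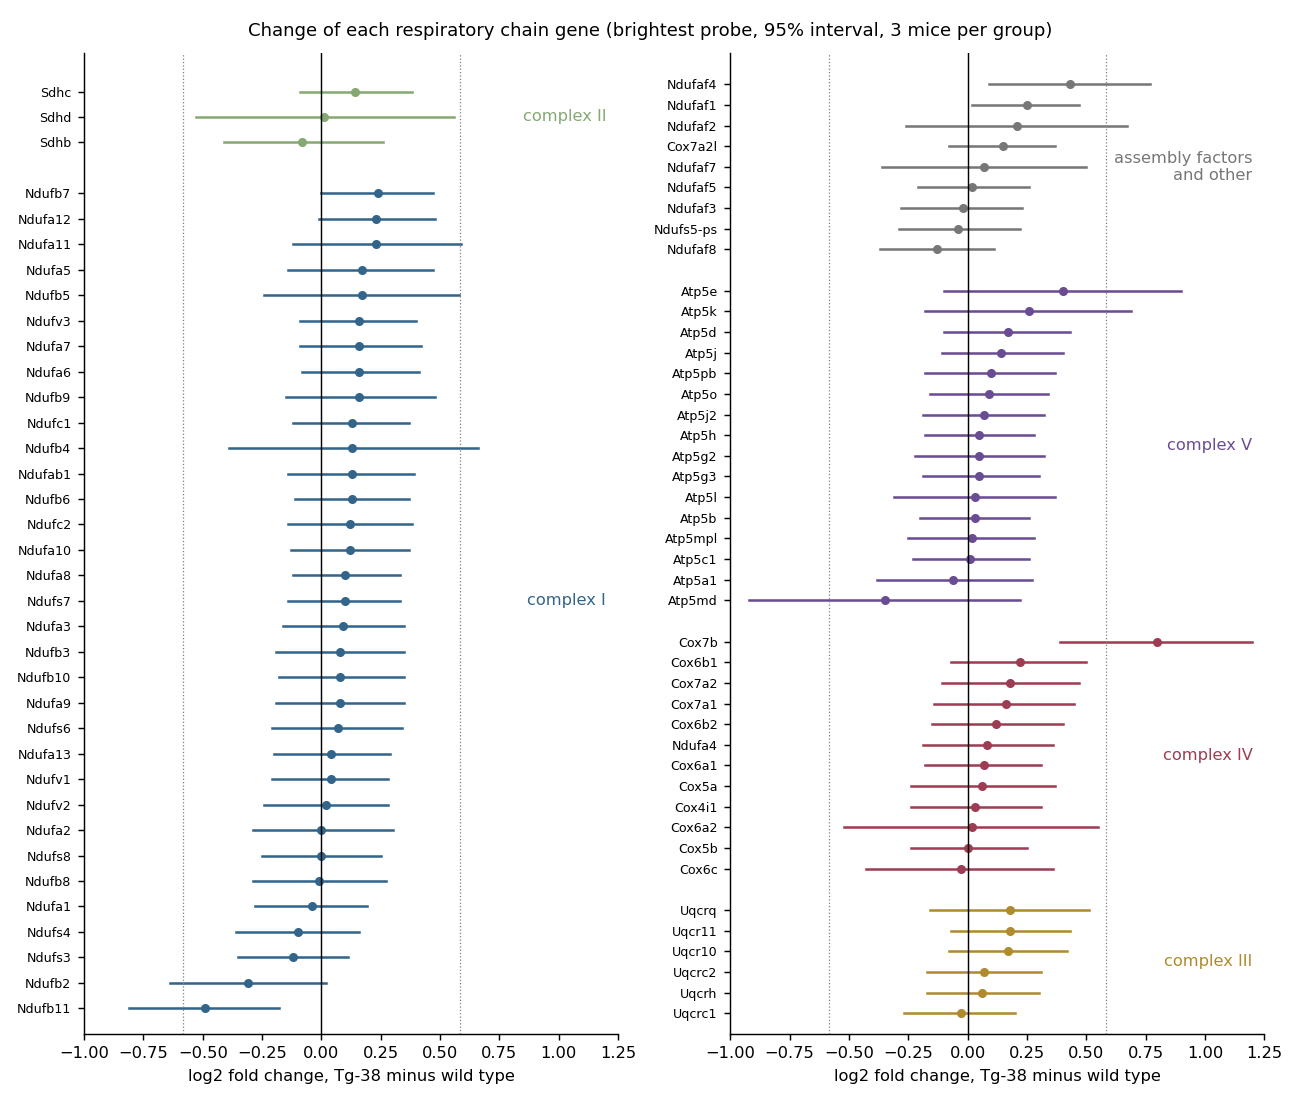
Log2 fold change of Tg-38 over wild type (x axis) for each of the 79 genes (y axis), as points with 95% intervals from limma on 3 mice per group, under quantile normalization. Colours mark the complexes and dotted lines mark 1.5-fold. Most intervals cross 0, Cox7b at 0.80 and Ndufb11 at -0.49 lie farthest out, and 58 of 70 subunits lie above 0. This count is 12 of 70 with the arrays scaled to a common median over all probes, and 51 of 70 centred on the median of the probes kept.

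The arrays of the groups overlapped for the subunits as a whole. The median difference of the 70 subunits from their wild type mean was -0.05, 0.05 and 0.03 on wild type arrays 1 to 3. It was 0.02, 0.09 and 0.16 on Tg-38 arrays 1 to 3. Wild type arrays 2 and 3 thus lay above Tg-38 array 1, and the lowest and highest arrays were wild type array 1 and Tg-38 array 3. On wild type array 1 only 23 of the 70 subunits lay above their wild type mean, and on Tg-38 array 3 there were 63. Without wild type array 1 the median change of the subunits was 0.04 with 50 of 70 above 0, and without Tg-38 array 3 it was 0.06 with 48 of 70 above 0. The median signal of all probes before normalization was highest on wild type array 1 (140.7) and lowest on Tg-38 array 3 (123.0), the same arrays at the ends in the opposite order. The part of array brightness in the subunit medians was not tested.

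**Figure D2:**
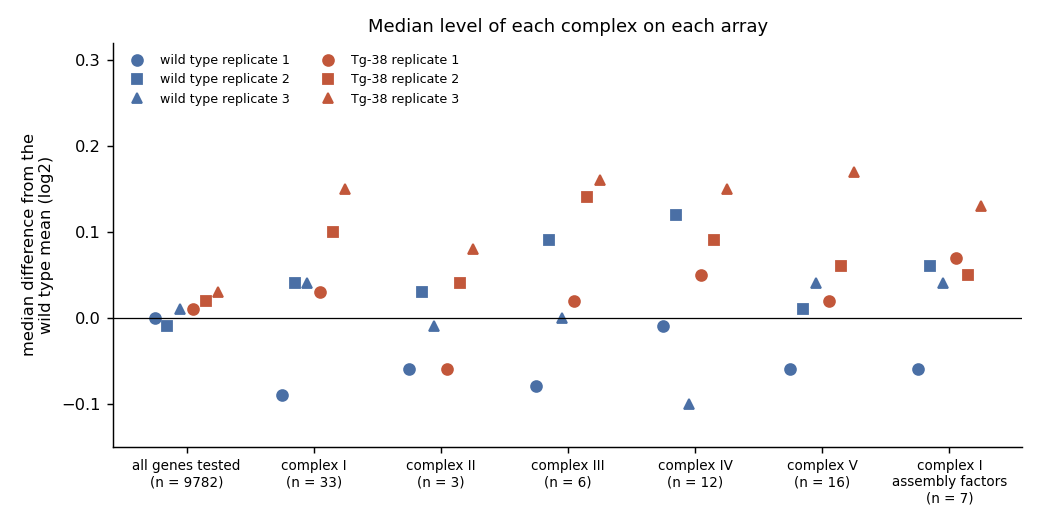
Median difference from the wild type mean, in log2 units (y axis), of the genes of each complex on each of the 6 arrays under quantile normalization; n is the number of genes, blue marks wild type and red marks Tg-38, with 1 shape per replicate. Among the complexes, wild type replicate 1 is the lowest or tied lowest array except in complex IV, Tg-38 replicate 3 is the highest in each, and the groups overlap in each.

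Complex I was measured through 33 genes, and its median change was 0.10, with 26 of 33 above 0. By the parts of the enzyme, the median was 0.04 over 7 genes of the N module, which takes electrons from NADH. It was 0.10 over 7 genes of the Q module, which hands them to ubiquinone, 0.11 over 8 genes of the proximal membrane arm and 0.13 over 11 genes of the distal membrane arm. The SD of the changes among genes was 0.11, 0.11 and 0.08 in the N, Q and proximal parts, where the median standard error of a single change was 0.11. In the distal arm the SD was 0.23 and the median standard error 0.12. Its probes were also dimmer, with a median level of 9.04 against 11.94, 11.48 and 11.72 in the N, Q and proximal parts. The part of probe brightness in this wider spread was not tested. Differences between the parts were not tested.

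In the N module, Ndufv1, which binds NADH, had a change of 0.04. Its partner Ndufv2 gave a change of 0.02, and Ndufs4, an accessory subunit needed for a stable N module, one of -0.10. Ndufa12, an accessory subunit at the junction with the Q module, had levels of 10.60, 10.56 and 10.77 in wild type and 10.88, 10.92 and 10.83 in Tg-38. All Tg-38 values of Ndufa12 lay above all wild type values, with a change of 0.23 (SE 0.11, adjusted p = 0.32 by limma). The remaining N module genes Ndufa2, Ndufs6 and Ndufv3 lay between 0.00 and 0.16. Ndufs1, the large iron-sulfur subunit of this module, was not detected on any array.

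In the Q module the iron-sulfur subunits Ndufs7 and Ndufs8 had changes of 0.10 and 0.00. Ndufa6 and Ndufa7, accessory subunits, both had a change of 0.16 (SE 0.11), with adjusted p = 0.48 and 0.50 by limma. Ndufs3, a core subunit of the module, was at 10.68, 10.73 and 10.79 in wild type and at 10.62, 10.62 and 10.60 in Tg-38. Its groups did not overlap, with a small change of -0.12 (SE 0.10, adjusted p = 0.59). Ndufa5 and Ndufa9 had changes of 0.17 and 0.08. The proximal membrane arm was the most even part, from -0.04 for the X-linked subunit Ndufa1 to 0.23 for Ndufa11. Between them lay Ndufa13, Ndufa3, Ndufa8, Ndufa10, Ndufc2 and Ndufc1.

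The distal membrane arm held the widest range, from -0.49 to 0.24. Ndufb11, an X-linked accessory subunit of this arm, had levels of 6.49, 6.38 and 6.61 in wild type and 5.89, 6.27 and 5.84 in Tg-38. The groups did not overlap, and the change was -0.49 (SE 0.14, adjusted p = 0.13 by limma). A second, dimmer probe of Ndufb11, detected on 1 wild type and 2 Tg-38 arrays, had a change of 0.08. Ndufb2, another subunit of this arm, was at 7.57, 7.75 and 7.32 against 7.04, 7.40 and 7.25, and its groups overlapped (-0.31, SE 0.15, adjusted p = 0.32). Ndufb7 was at 8.43, 8.26 and 8.30 against 8.61, 8.56 and 8.53, without overlap (0.24, SE 0.11, adjusted p = 0.30). Ndufab1, the mitochondrial acyl carrier protein that also serves lipoate synthesis, had a change of 0.13. The other subunits of the arm, Ndufb3 to Ndufb6 and Ndufb8 to Ndufb10, lay between -0.01 and 0.17.

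Complex II, succinate dehydrogenase, is encoded by 4 nuclear genes and also works in the tricarboxylic acid cycle. Its flavoprotein subunit Sdha was not detected on any array. Sdhb, the iron-sulfur subunit, was at 9.82, 10.32 and 10.06 in wild type and at 9.83, 10.10 and 10.03 in Tg-38. The membrane anchor Sdhc was at 10.75, 10.83 and 10.83 against 10.87, 10.99 and 10.99, without overlap but with a change of only 0.14 (SE 0.10, adjusted p = 0.52 by limma). The other anchor, Sdhd, was at 8.05, 7.16 and 6.99 against 7.35, 7.41 and 7.48. The 3 Tg-38 values of Sdhd lay inside the wild type range, which wild type array 1 widened, and the standard error of 0.24 was among the larger ones. The median of the complex, 0.01, moved to 0.12 without wild type array 1 and to -0.08 without wild type array 3, so 3 genes on these arrays gave no stable value.

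Complex III had a median change of 0.12 over 6 genes. The core subunits Uqcrc1 and Uqcrc2 had changes of -0.03 and 0.07. The small subunits Uqcrh, the hinge protein, and Uqcr10, Uqcr11 and Uqcrq had changes of 0.06, 0.17, 0.18 and 0.18. Uqcr11 was at 12.07, 12.27 and 12.13 in wild type and at 12.25, 12.38 and 12.38 in Tg-38, so that 1 wild type array reached into the Tg-38 range (SE 0.11, adjusted p = 0.44 by limma). The groups overlapped for all 6 genes. Uqcrfs1, the Rieske iron-sulfur protein that passes electrons on, was below the filter. Its better probe was detected on 2 arrays, both of Tg-38, with levels of 4.71, 4.73 and 4.84 in wild type and 5.44, 4.88 and 5.39 in Tg-38, and its other probe was detected on none. It was the only gene just outside the detection rule, and the genes inside it were detected on all 6 arrays by their brightest probe.

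Complex IV, cytochrome c oxidase, had a median change of 0.07 over 12 genes, with or without Cox7b. Cox7b encodes an X-linked accessory subunit, and in humans mutations of COX7B, like those of NDUFB11, cause microphthalmia with linear skin defects. Its levels were 6.32, 6.22 and 5.70 in wild type and 7.10, 6.75 and 6.78 in Tg-38. All Tg-38 values lay above all wild type values, by a gap wider than the range within Tg-38 but narrower than that within wild type. Before normalization the signals were 210.1, 183.5 and 154.6 in wild type and 243.9, 201.3 and 193.7 in Tg-38, where the groups overlapped. The change was 0.80, with a standard error of 0.18 and a 95% interval from 0.39 to 1.2 (adjusted p = 0.08 by limma). It passed the threshold under 3 of 18 other ways of processing, with adjusted p = 0.034 with an offset of 50, 0.036 with an intensity trend in the variance, and just under 0.05 on the authors' processed values. The sign of its change was the same in all of them, and the change ranged from 0.33 to 0.92. Cox7b has 1 probe here, so no second measurement bears on it.

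**Figure D3:**
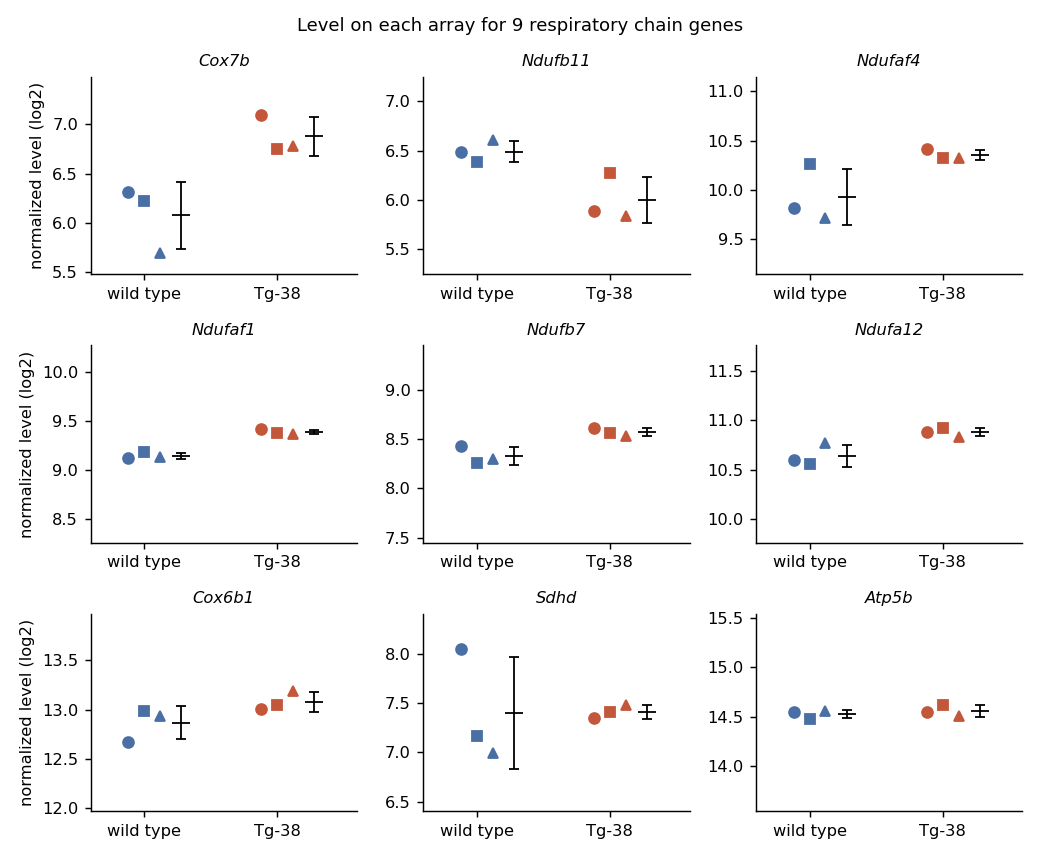
Normalized log2 level (y axis, 2 log2 units in each panel) of 9 genes on each array, in wild type (blue) and Tg-38 (red) mice, with the shape giving the replicate; black marks are the mean and SD of 3 mice. Cox7b, Ndufaf4, Ndufaf1, Ndufb7 and Ndufa12 are higher without overlap and Ndufb11 is lower without overlap, none of them passing the adjusted test; Cox6b1 is also separate but narrowly, while Sdhd and Atp5b overlap.

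The other common subunits of complex IV lay from -0.03 for Cox6c to 0.22 for Cox6b1. Cox6b1, which faces the intermembrane space, was at 12.67, 12.99 and 12.94 against 13.01, 13.05 and 13.19, and the groups were apart by a narrow margin (SE 0.12, adjusted p = 0.42 by limma). Cox7a2 was at 7.84, 8.02 and 7.61 against 8.08, 7.97 and 7.94, with overlap (0.18, SE 0.13, adjusted p = 0.53). Cox4i1, Cox5a and Cox6a1, found in nearly all tissues, had changes of 0.03, 0.06 and 0.07. Ndufa4, first counted in complex I and now placed in complex IV, had a change of 0.08. Cox6a2 and Cox7a1, forms best known from heart and skeletal muscle, and Cox6b2, known from testis, were detected in every thymus with changes of 0.02, 0.16 and 0.12. The lung form Cox4i2 and the testis form Cox7b2 were not detected on any array.

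Complex V, the ATP synthase, had a median change of 0.05 over 16 genes, and the groups overlapped for all of them. The catalytic subunit Atp5b was at 14.55, 14.48 and 14.56 in wild type and 14.55, 14.62 and 14.51 in Tg-38, with a change of 0.03 (95% interval -0.20 to 0.26). The alpha subunit Atp5a1 and the gamma subunit Atp5c1 had changes of -0.06 and 0.01, and the delta subunit Atp5d one of 0.17 (SE 0.12, adjusted p = 0.51 by limma). Atp5e, the small epsilon subunit of the central stalk, was at 7.21, 8.13 and 7.33 against 8.05, 7.84 and 7.98. Wild type array 2 exceeded every Tg-38 value, and the change of 0.40 (SE 0.22, adjusted p = 0.40) became 0.69 with adjusted p = 0.043 without that array. The 4 genes of the peripheral stalk, Atp5pb, Atp5h, Atp5j and Atp5o, lay between 0.05 and 0.14.

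In the membrane part of complex V, Atp5g2 and Atp5g3, which encode the same c-ring protein, both had a change of 0.05. The small subunits Atp5j2, Atp5l and Atp5mpl had changes of 0.07, 0.03 and 0.02. The dim ones were less precise, with 0.26 for Atp5k (SE 0.19) and -0.35 for Atp5md (SE 0.25). Atp5md was at 6.08, 6.50 and 6.36 against 5.38, 6.00 and 6.50, so the Tg-38 arrays alone spanned the wild type range (adjusted p = 0.52 by limma).

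The 7 assembly factors of complex I, which build the enzyme but do not stay in it, had a median change of 0.07. Ndufaf4, which acts early in the Q module's assembly, was at 9.82, 10.26 and 9.72 in wild type and at 10.42, 10.33 and 10.33 in Tg-38. The groups did not overlap, with a change of 0.43 (SE 0.15, adjusted p = 0.20 by limma), and its second probe had a change of 0.26 (adjusted p = 0.26). Ndufaf1, which takes part in building the membrane arm, was at 9.12, 9.18 and 9.13 against 9.42, 9.38 and 9.37. The narrow spread within both groups left these apart at a change of 0.25 (SE 0.10, adjusted p = 0.25). By their brightest probes Ndufaf2, Ndufaf3, Ndufaf5, Ndufaf7 and Ndufaf8 lay between -0.13 and 0.21, and Ndufaf6 was not detected. A second, dimmer probe of Ndufaf5 had a change of 0.42 without overlap (adjusted p = 0.17 by limma). Cox7a2l, the supercomplex factor, was at 11.82, 11.91 and 11.85 against 12.01, 12.02 and 11.98, apart by 0.15 (adjusted p = 0.50). The probe listed under the pseudogene Ndufs5-ps had a change of -0.04, and since the pseudogene resembles Ndufs5 its reading is uncertain.

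Where the array has more than 1 probe for a gene, the probes often differed. Of the 25 genes with several probes, 14 had probes with changes of opposite sign. The brightest probes had a median change of 0.09, and the 33 other probes one of -0.03, with 15 above 0. Over the 3787 genes with several probes, the median was also lower for the other probes, at -0.05, than for the brightest, at 0.00. Cox5b, a zinc-binding subunit of complex IV, had a change of 0.00 on its brightest probe and of -0.32 on the other, where 10.78, 10.98 and 10.89 stood against 10.55, 10.72 and 10.42 (adjusted p = 0.23 by limma). Ndufb10 had 0.08 on its brightest probe and -0.36 on the other (adjusted p = 0.17). Of the 4 probes of Atp5pb, the brightest gave 0.10 and other probes -0.03 and 0.27. The dimmest was detected on all wild type and no Tg-38 arrays, so it was kept only through wild type. Its wild type mean of 5.44 was near the lowest detected levels (5.106 to 5.208), and its bound was at least 1.22-fold lower in Tg-38. The sign of the change differed between probes in Cox5b, Ndufb10 and Atp5pb. With the arrays scaled to a common median over all probes, their brightest probes also fell below 0, at -0.18, -0.10 and -0.09.

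**Figure D4:**
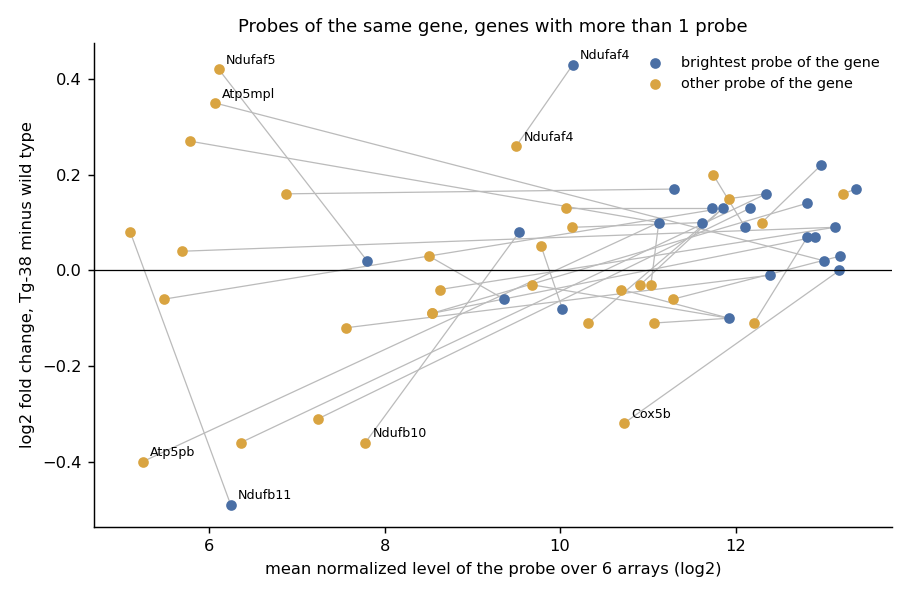
Log2 fold change (y axis) against the mean normalized log2 level of the probe over 6 arrays (x axis) for the 25 genes with several probes, under quantile normalization. Lines join the brightest probe of a gene (blue) to its other probes (yellow), names mark probes at an unadjusted p under 0.05, and 14 of the 25 genes have probes on both sides of 0.

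The brightness of the probes was also set against the changes. Of the 79 genes, 55 lay among the brightest 2446 genes of the 9782, where their median change was 0.07 and that of all genes 0.01, with SDs of 0.09 and 0.18. The 4 genes among the dimmest 2446 had a median of -0.11 with an SD of 0.36, and 2 of these 4 lay above 0. Of the 6 genes with a change beyond 0.30 in either direction, Cox7b, Ndufb11, Atp5e, Atp5md and Ndufb2 were measured by probes dimmer than the median gene. The other, Ndufaf4 at 0.43, was among the brightest 2446.

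Nuclear genes of the respiratory chain are known to share regulators, among them NRF1, GABPA and YY1, so their promoters were searched for the letters these factors bind. The RefSeq promoters run from 250 bases before to 50 bases after the start site (GRCm38.p6) and were found for 68 of the 79 genes, and both strands were searched. The NRF1 letters GCATGCGC stood in 12 of 68 (17.6%), in 6.13% of the promoters of the genes tested and in 2.71% of all promoters. Of these 12 genes, 1 per complex and the assembly factor Ndufaf4 are shown, as 40 bases on the gene's strand with the NRF1 letters in capitals. The windows lie at chr17:56717688-56717727 (plus strand) for Ndufa11, chr4:140961201-140961240 (plus) for Sdhb and chr10:80406802-80406841 (minus) for Uqcr11. For Cox6a1 the window is chr5:115349095-115349134 (minus), for Atp5g2 chr15:102671064-102671103 (minus) and for Ndufaf4 chr4:24897956-24897995 (plus).
Ndufa11: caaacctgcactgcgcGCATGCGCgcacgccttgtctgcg
Sdhb: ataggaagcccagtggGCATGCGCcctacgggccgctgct
Uqcr11: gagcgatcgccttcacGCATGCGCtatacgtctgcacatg
Cox6a1: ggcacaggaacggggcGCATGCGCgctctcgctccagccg
Atp5g2: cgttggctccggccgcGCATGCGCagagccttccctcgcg
Ndufaf4: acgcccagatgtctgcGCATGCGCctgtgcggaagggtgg

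The letters start 58, 54, 4, 160, 40 and 111 bases before the start site in these 6 promoters. Counted by gene, the GABPA letters CCGGAAG stood in promoters of 26.5% of the 68 genes and of 20.9% of the genes tested. The YY1 letters AAGATGGCG stood in 11.8% and 3.68%, and the CREB letters TGACGTCA in 4.41% and 3.60%. The SP1 letters GGGCGG, the only ones that were less common among the 68 genes, stood in 50% and 68.3%. The ERRA letters TCAAGGTCA were in 2 of 68 (2.94%), against 0.326% of the genes tested. The genes with the NRF1 letters had a median change of 0.08 and those without them one of 0.09, so the changes did not separate by these letters. Neither Cox7b nor Ndufb11 held any of the 6 sets of letters in this window.

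Of the 7 mitochondrially encoded subunits detected, none passed, and 5 of 7 lay above 0 with a median of 0.09 (4 of 7 and 0.01 under median scaling). ND5, a proton-pumping subunit of complex I, was at 7.37, 7.80 and 8.19 in wild type and at 8.40, 8.77 and 8.32 in Tg-38, without overlap (0.71, SE 0.21, adjusted p = 0.14 by limma). The other complex I transcripts were close to even, with 0.12 for ND1, 0.09 for ND4 and -0.01 for ND4L. CYTB of complex III gave 0.02, COX2 of complex IV -0.12 and ATP6 of complex V 0.19. Mitochondrial RNAs are cut from long shared transcripts, and the differences between these transcripts were not tested.

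Assembly factors of the other complexes held no gene that passed. In complex II, Sdhaf4, which helps fit the flavin subunit, had a change of 0.34 (adjusted p = 0.29 by limma) and Sdhaf1 one of 0.17. In complex III, Uqcc2, which serves the synthesis of cytochrome b, was at 11.47, 11.53 and 11.34 against 11.62, 11.80 and 12.07, without overlap (0.38, SE 0.14, adjusted p = 0.21), and Bcs1l, which inserts the Rieske protein, had a change of 0.26. In complex IV, the copper chaperone Cox11 was at 6.57, 6.51 and 6.58 against 6.31, 5.95 and 6.02, without overlap (-0.46, SE 0.12, adjusted p = 0.12), while Coa4 had a change of 0.29. In complex V, Atpaf2 and Tmem70 had changes of 0.16 and -0.03. Foxred1, an assembly factor of complex I outside the Nduf names, had a change of 0.37 (adjusted p = 0.21).

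The medians by complex were set side by side for each way of processing. For complexes I, III, IV and V they stayed between 0.03 and 0.16 under every choice except the scaling to a common median over all probes. There they were -0.09, -0.06, -0.10 and -0.09. The SD of a complex's median between replicate arrays was between 0.058 and 0.086, and differences between complexes were not tested.

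**Figure D5:**
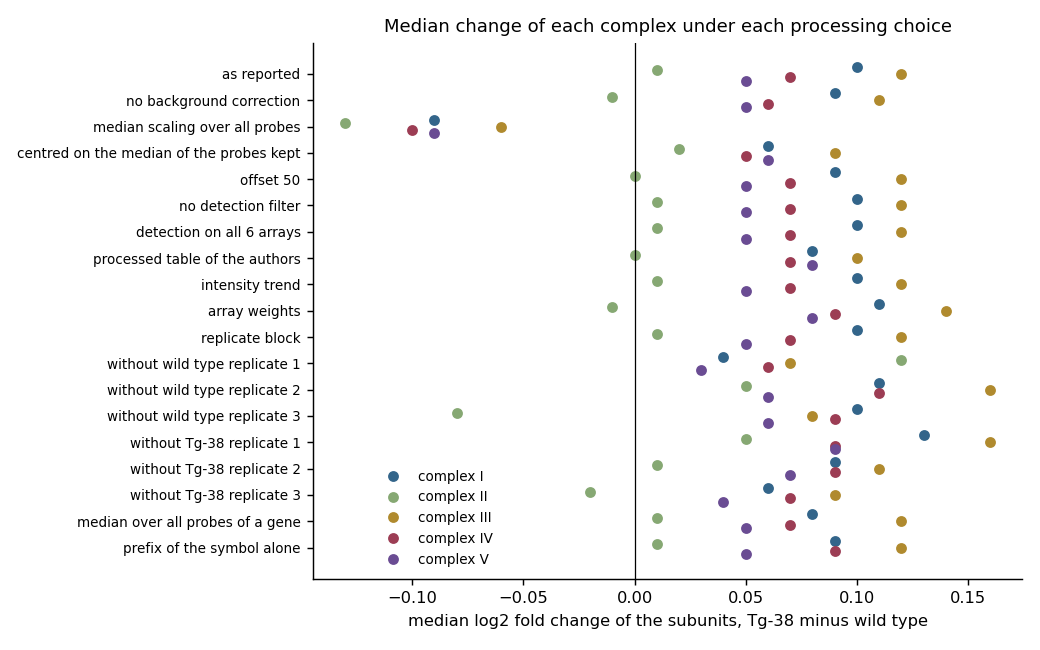
Median log2 fold change of the subunits of each complex (x axis, Tg-38 minus wild type) under each processing choice (y axis), with 1 colour per complex. The medians of complexes I, III, IV and V lie between 0.03 and 0.16 except under median scaling over all probes, where every complex lies below 0.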

How the data were processed

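The arrays were Illumina MouseWG-6 v2, 1 per mouse, read out by the submitters with GenomeStudio, per their processing notes (version not given in the sources used here). The deposited scanner table gives for each probe and array an average bead signal as a linear intensity, not normalized between arrays, and a detection p-value set against the array's negative controls. A second deposited table holds intensities processed by the authors, with background and scale changed in a way not stated in the sources used here (each column's median lies between 1.726 and 2.028), and served only as an alternative.

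Scanner intensities were corrected for background with the detection p-values, given an offset of 16, taken to log2 and quantile-normalized (neqc, limma 3.58.1, R 4.3.3, statmod 1.5.0). Of 45281 probes, 18352 with a detection p under 0.05 on 3 or more arrays were kept. The groups were compared with limma (lmFit and eBayes, two-sided) with Benjamini-Hochberg adjustment over all probes kept and a threshold of 0.05. The labels do not state littermates or separate days, and the 6 arrays limit the precision.

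Gene names are those of the platform's annotation (34885 probes under 1 gene, 18 under several, 10378 under none), and the brightest probe kept stands for a gene. Complexes and modules were assigned from textbook knowledge. A probe detected on no array of a group has only a bound, taken against the lowest detected signal of each array. The members and lists were chosen with earlier results of these data known. Named are the 6 members of complex I and 3 of each other complex with the smallest p, all of complex II, members whose probes disagree at p under 0.05, and 2 genes of each context list. Ndufaf1, Ndufs3, Cox7a2l and the second probes of Ndufaf5 and Atp5mpl were named after their values were seen. The other members were named as examples of their module. The alternatives are those of the closing section, and figures were drawn with matplotlib 3.10.9 under Python 3.11.15.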

Additional observations from a re-analysis of the deposited data

How the results depend on the processing

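The count of 0 genes passing became 1 with an offset of 50, on the authors' processed values and with an intensity trend (Cox7b each time), and ran from 0 to 1 when single arrays were left out (Atp5e without wild type replicate 2). Over all probes kept, calls by limma ranged from 20 (without Tg-38 replicate 3) to 481 (intensity trend), against 202, and the methods' t-test left 1 after adjustment. Median scaling over all probes gave medians of -0.09, -0.13, -0.06, -0.10 and -0.09 for complexes I to V. Leaving out single arrays gave complex II medians from -0.08 to 0.12. Under median scaling the following turned below 0: Atp5d (-0.02), Atp5pb (-0.09), Atpaf2 (-0.01), ND1 (-0.05), Ndufa6 (-0.01), Ndufa7 (-0.02), Ndufb10 (-0.10), Sdhaf1 (-0.02), Sdhc (-0.04), Sdhd (-0.13) and Uqcrq (-0.01). With the median over all probes of a gene, Atpaf2 (-0.10), Foxred1 (-0.12) and Ndufb10 (-0.14) did. Sdhd was at -0.01 without background correction and -0.14 with array weights, and Tmem70 at 0.01 with array weights. With single arrays left out, Sdhd ranged from -0.19 to 0.34, Sdhb from -0.20 to 0.05 and Tmem70 from -0.16 to 0.08. The cause was not tested. Other named genes kept their sign in each alternative, apart from Cox5b, which stood at 0.00.

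The replicate numbers were not treated as pairs, since the labels state no pairing. Deviations of same-numbered arrays correlated at 0.03, -0.12 and -0.10, and those of differently numbered arrays at -0.12 to 0.19. With 3 arrays per group these values cannot exclude a pairing. With the replicate number as a block, 0 of the 79 genes and 27 probes passed, and the medians of complexes I to V were 0.10, 0.01, 0.12, 0.07 and 0.05. A slide block was not run, since the columns give no slide. With 3 arrays per group and dim probes for several subunits, changes under 1.2-fold were mostly not detectable, and larger ones also failed the adjusted test. Cox7b at 1.74-fold (adjusted p = 0.08 by limma) and Ndufaf4 at 1.35-fold (adjusted p = 0.20) did not pass. The smallest change that could pass was not worked out.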

Other observations

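Genes around the respiratory chain were described by lists, none with a gene that passed in limma. The 17 electron carriers and ubiquinone genes had a median log2 fold change of 0.16, with 13 of 17 above 0 under quantile normalization but 8 of 17 under median scaling (52.9% of all genes under the former). At an unadjusted p of 0.05, 1 of 17 was higher and 1 lower, against 10.6% and 6.94% of all genes. Coq2, which attaches the side chain of ubiquinone, was at 9.56, 9.65 and 9.46 in wild type and at 9.85, 9.79 and 9.86 in Tg-38, without overlap (0.28, adjusted p = 0.23). Sqor, which passes electrons from sulfide to ubiquinone, had a change of -0.40 (adjusted p = 0.28). Cycs, the cytochrome c of somatic cells, had one of 0.16. The 15 genes of the tricarboxylic acid cycle had a median of 0.09 (-0.07 under median scaling), with 0.33 for Idh2 and -0.19 for Fh1, and the 20 regulators of mitochondrial gene expression one of 0.05 (-0.13 under median scaling), with -0.29 for Mterf3 and 0.23 for Slirp.

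The 14 genes of the mitochondrial membrane and import had a median of 0.06 (-0.10 under median scaling), led by the prohibitin Phb2 (0.25) and the chaperonin Hspd1 (0.24). Of 8 genes of uncoupling and reactive oxygen, Sod2, the superoxide dismutase of the matrix, was at 10.74, 10.58 and 10.58 against 10.19, 10.58 and 10.23, a change of -0.30 (SE 0.13, adjusted p = 0.29 by limma). Gpx1, a peroxidase of cytosol and mitochondria, was at 12.66, 12.56 and 12.69 against 12.93, 12.83 and 12.81, a change of 0.22 (adjusted p = 0.33). The Sod2 values of the groups met at 10.58, and those of Gpx1 did not overlap.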
